A study of Mus musculus with 3 samples.

Results

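Intron-retaining transcripts were examined in cytosolic RNA of mouse macrophages: 767 transcripts out of the 21848 that the GENCODE M21 annotation classes as retained_intron. They were chosen by their measured level, a TPM of at least 1 in all 3 RSEM-layout transcript tables, so their levels are a description and were not tested. TPM is the share of all RNA molecules that a transcript makes up after division by its length. The 767 members, 3.51% of the class, came from 628 parent genes, of which 622 are protein-coding. By the same minimum, 4.33% of processed_transcript models, 7.96% of nonsense_mediated_decay models and 20.5% of protein_coding models were present, and 14534 of 141767 transcripts of all classes.

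Intron retention is the form of alternative splicing in which an intron stays in the mature RNA. Transcripts with such an intron are often held in the nucleus, and those that reach the cytosol commonly meet a stop codon inside the intron, which exposes them to nonsense-mediated decay, the pathway that removes mRNAs with early stop codons. In annotation, the class retained_intron is a label for a model judged to hold intronic sequence relative to the coding transcripts of its gene. Many such models are partial, built from a single cDNA that begins or ends inside an intron.

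All 3 libraries belonged to 1 group, given by the labels as biological replicates 1, 2 and 3. Bone marrow-derived macrophages of C57BL/6J mice had been exposed to Lipid A, the part of bacterial lipopolysaccharide sensed by Toll-like receptor 4, at 100 ng/ml for 12 h, had been without it for 12 h, and had then met 100 ng/ml again for 50 min. Total RNA of the cytosolic fraction was sequenced after removal of ribosomal RNA. The labels give no age, no sex and a single strain-level donor entry, and there was no untreated, unfractionated or nuclear library, so neither an effect of Lipid A nor a ratio of cytosol to nucleus could be computed. In bulk RNA, fewer cells that hold a transcript and less of it per cell cannot be told apart.

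The libraries held 47972048 to 54409437 expected counts over genes. All 12 macrophage markers had a TPM of at least 1 in every library, and the summed TPM of 8 T and NK cell markers did not exceed 0.07. Of 8 neutrophil markers 2 reached a TPM of 1 in every library (summed TPM 8.46 to 11.3) and of 6 B cell markers 1, Cd22 (summed TPM 3.5 to 8.53), while Ly6g was at 0 in every library and Pax5 did not exceed 0.03. The part of such cells in the members' levels was not tested. The libraries differed in a comparison list of 9 RNAs taken as nuclear. How far each of them stays in the nucleus was not tested. Malat1 had 5966, 3089 and 1426 CPM (a count divided by its library size after TMM scaling) in replicates 1, 2 and 3. Its log2 deviations from the mean of 3 were 1.00, 0.06 and -1.06, so replicate 3 lay as far below as replicate 1 above. Of the 9 listed RNAs, 7 were highest in replicate 1, 2 in replicate 2 and none in replicate 3. This bears on every statement below that sets replicates against each other. TPM is relative to all other RNAs of its library. The median member had a TPM of 4.79, 2.75 and 3.58, and replicates are compared in CPM.

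The annotated structure of the members, which the rule did not use, held fewer intron bases than the name of the class tells. Among 762 members whose gene has a coding transcript, the median share of the model lying in introns of coding transcripts, and in no coding exon, was 16.3%, or 136 bases. Other retained_intron models of the same genes had a median of 42.9% (n = 1326), and the annotated class as a whole 41.0%. A share under 10% was found in 254 members (33.3%), against 7.84% of the other models of the same genes. A share of at least 50% was found in 107 members (14.0%), against 41.2%. These limits of 10% and 50% were set after the data had been seen.

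**Figure D1:**
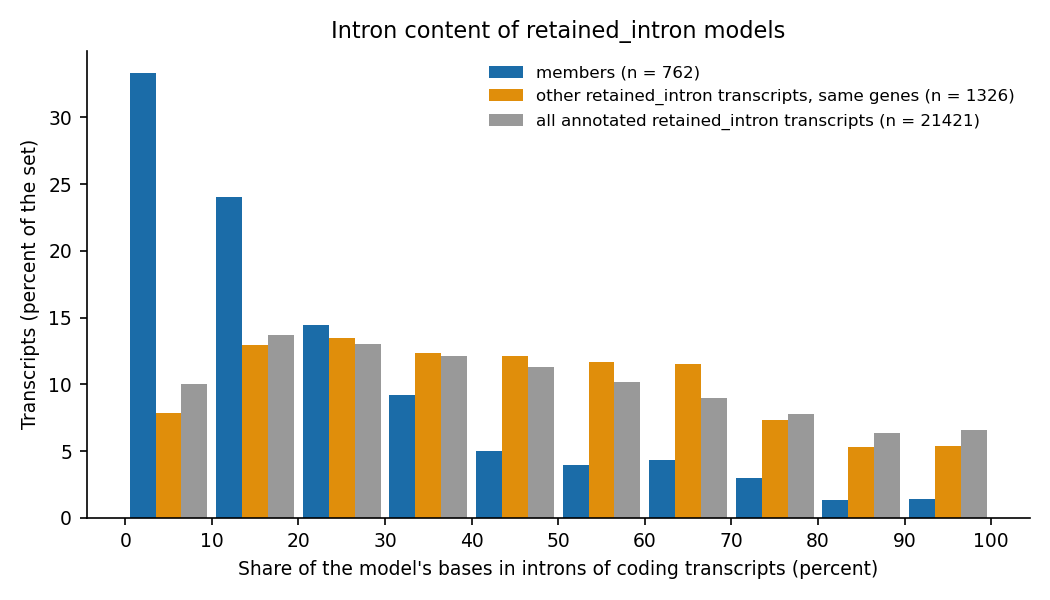
Histogram of the share of each retained_intron model's bases that lie in introns of coding transcripts (horizontal axis, percent, in steps of 10) for the members, the other retained_intron models of the same genes and the whole annotated class (vertical axis, percent of each set). The members are crowded at the left, with 33.3% of them under 10%.

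Most members were models with an end inside an intron. There were 527 such members without an intron held whole (69.2%): 355 of these began in an intron, 192 stopped in one, and 20 of them did both. A further 214 (28.1%) held an intron whole between flanking exon sequence, 11 had other arrangements, and 10 held no intron base at all by this definition. These shares were near those of the annotated class, where 68.5% had only an end in an intron and 30.2% held an intron whole. In other retained_intron models of the same genes the shares were 62.0% and 36.8%. The median member shared most of its length with other transcripts of its gene: 11.4% of its bases lay in no other transcript, and 127 members had no base of their own. A level assigned to such a model rests largely on reads that other transcripts could also have given, and the tables hold no coverage per base, so a TPM here does not show that the intron itself was read.

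The introns held whole were described by length, ends and reading frame. For the longest in each of the 214 models, the median length was 232 bases (quartiles 111 and 718), beside 237 in other models of the same genes and 296 in the class. Of the 214, 67 (31.3%) were shorter than 150 bases, against 35.2% in other models of the same genes and 29.0% of the class. The median GC content was 52.0%, against 51.8% and 51.1%. The ends were GT and AG in 210 (98.1%), against 99.2% and 98.0%, GC and AG in 2, and other letters in 2. A donor beginning GTAAGT or GTGAGT, the letters closest to the pairing sequence of U1 snRNA, was present in 60 (28.0%), against 26.8% in other models of the same genes and 24.3% of the class. Of the 200 that lie in coding sequence, 180 (90%) brought an in-frame stop codon, against 88.2% in other models of the same genes and 90.1% of the class, with the median stop ending 33 bases into the intron.

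Short coding introns that can be shown whole illustrate this. The introns below were read from GENCODE M21 transcripts on mm10, and capitals mark the first in-frame stop codon when translation continues from the exon before. Irf7 encodes a transcription factor of the interferon response and is known from stimulated mouse macrophages for retention of a short intron. Cd83 encodes a surface protein of activated antigen-presenting cells, Fth1 the heavy chain of the iron store ferritin, and Calr the chaperone calreticulin.
Irf7-210 intron, 69 bases, chr7:141264656-141264724, minus strand: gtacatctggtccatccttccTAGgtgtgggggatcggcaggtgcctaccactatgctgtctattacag
Cd83-202 intron, 95 bases, chr13:43785251-43785345, plus strand: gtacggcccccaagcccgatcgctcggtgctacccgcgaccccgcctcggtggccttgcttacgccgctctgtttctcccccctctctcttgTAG
Fth1-207 intron, 95 bases, chr19:9984686-9984780, plus strand: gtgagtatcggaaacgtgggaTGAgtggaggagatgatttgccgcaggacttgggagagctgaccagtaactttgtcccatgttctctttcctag
Calr-204 intron, 87 bases, chr8:84844784-84844870, minus strand: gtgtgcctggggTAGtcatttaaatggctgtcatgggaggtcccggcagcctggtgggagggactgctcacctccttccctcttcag
In Irf7-210 the stop ends at base 24 of the intron and in Calr-204 at base 15. In Cd83-202 the reading frame runs through all 95 bases, and the stop is formed by the last 3.

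Of the 200 coding introns, 20 gave no in-frame stop, and 6 of these had a length that is a multiple of 3. Examples with no stop from genes where the member carried most of the TPM are Prelid1, which encodes a lipid-transfer protein of mitochondria, and Mrps26, a protein of the mitochondrial ribosome. Their introns follow, with the GT and AG ends in capitals.
Prelid1-202 intron, 82 bases, chr13:55324445-55324526, plus strand: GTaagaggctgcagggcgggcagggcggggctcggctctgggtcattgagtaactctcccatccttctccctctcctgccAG
Mrps26-201 intron, 80 bases, chr2:130564228-130564307, plus strand: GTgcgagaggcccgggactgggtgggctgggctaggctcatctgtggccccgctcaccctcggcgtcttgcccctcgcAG
Neither length is a multiple of 3, so the frame after the intron differs from that of the coding transcript.

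By level the members were mostly scarce, with a few abundant ones. The mean TPM over 3 libraries ran from 1.05 to 1037 with quartiles of 2.38, 3.79 and 8.44, and 302 members reached a mean of 5, 167 a mean of 10 and 9 a mean of 100. The single highest member held 11.8% ± 2.16 of the members' summed TPM and the 10 highest 31.1% ± 2.91 (SD, n = 3). Just inside the rule were Eef1a1-205, Cbr4-206 and Nagk-207, each with a lowest TPM of 1, and just outside it were Pou6f1-210 and Fermt3-205 with a lowest TPM of 0.99 and Poglut1-205 with 0.98. In multi-transcript coding genes the whole class took 4.74%, 3.65% and 3.59% of TPM in replicates 1, 2 and 3, and the members 3.39%, 2.89% and 3.02%. As shares of expected counts, which are not divided by length, the class took 2.74%, 1.86% and 1.64%.

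The highest member was H2-K1-215, a model of the classical MHC class I gene H2-K1, which presents peptides to cytotoxic T cells. Its TPM was 1214, 939 and 957 in replicates 1, 2 and 3, above the next member in each library. Only 20 of its 457 bases are intronic (chr17:33996106-33996674, minus strand, with its 5′ end in an intron), and every base is shared with another model of the gene. H2-K1 had 5 members, whose summed mean TPM was 1088 beside 2357 for the gene. H2-K1-214 (TPM 32.1 ± 21.1) holds a whole coding intron of 187 bases whose splice sites are the same letters as those of H2-Q4-202, a member of a related MHC gene on the same chromosome. The lines below give 3 exon bases and 6 intron bases at the donor, and 20 intron bases and 3 exon bases at the acceptor, with the intron ends in capitals.
H2-K1-214 donor: gcgGTgagt
H2-K1-214 acceptor: ctgaccgcggggtcccgcAGgct
H2-Q4-202 donor: gcgGTgagt
H2-Q4-202 acceptor: ctgaccgcggggtcccgcAGgct
Genes of this family share long stretches of sequence, and the division of reads between them is uncertain.

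The members at ranks 2 to 5 by mean TPM were again models with little intron sequence. Itm2b-202, of a membrane protein gene, had a TPM of 423, 278 and 431 with 78 intron bases of 935. Vim-203, of the intermediate filament gene vimentin, had 230, 221 and 291 with 52 of 535. Aif1-205, of the gene for the macrophage actin-binding protein Iba1, had 184, 235 and 240 with none of 462. In CPM, replicate 3 was highest in Itm2b-202 and in Vim-203, and replicate 2 in Aif1-205. Ctsb-202, at rank 3 with 91 intron bases of 801, is described with the second estimate. Rps20-201 and Rgs1-203 were at ranks 6 and 7, with larger intron shares of 33.0% and 26.8%. Rgs1, which encodes a regulator of G-protein signalling, had a member at 163, 54.3 and 272, lowest in replicate 2 by a margin wider than the deposited intervals.

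**Figure D2:**
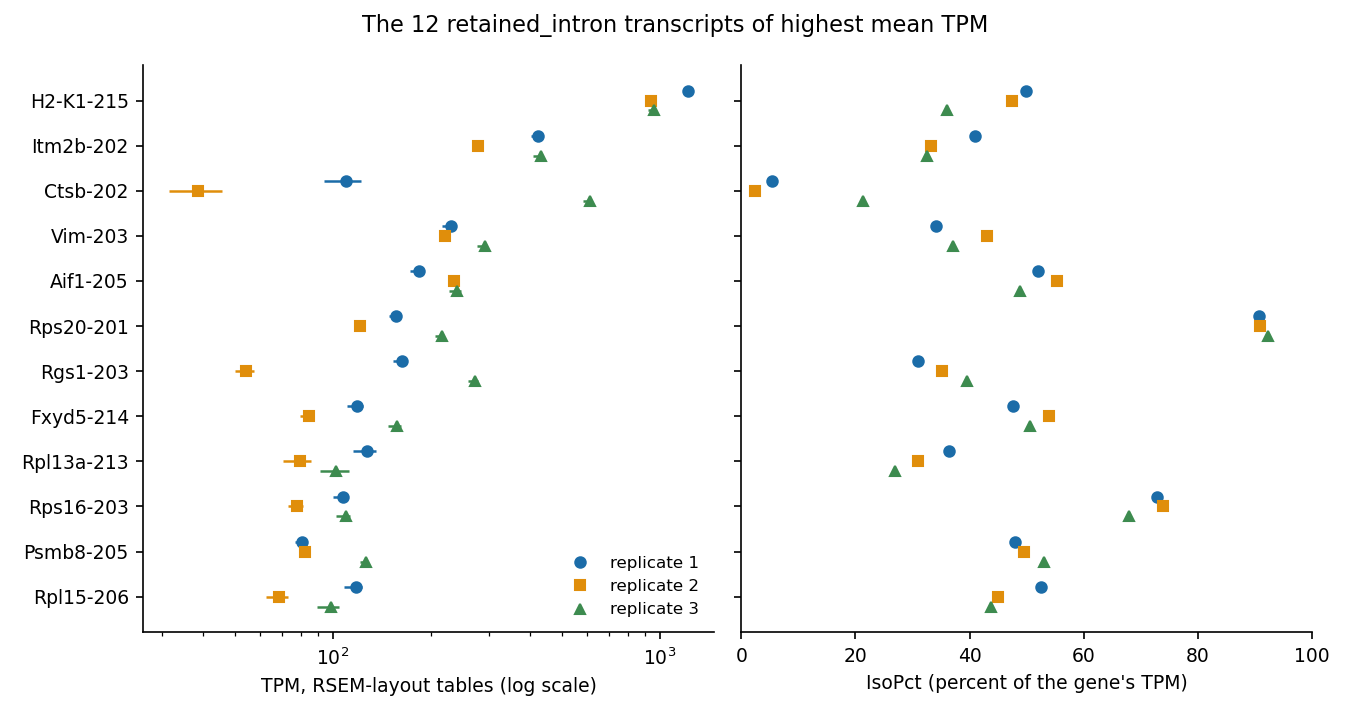
TPM on a log axis (left) and share of the gene's TPM in percent (right) of the 12 members of highest mean TPM, with 1 symbol per library and lines for the deposited interval of each TPM. H2-K1-215 lies above all others in every library, and Ctsb-202 spreads most, from 38.6 to 612.

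IsoPct, a transcript's TPM as a percent of the TPM of its gene, was low for most members. Its median was 16.6%, with quartiles of 5.27% and 31.7%, and 142 members stayed under 5% in every library. An IsoPct of at least 50 in all 3 libraries was reached by 54 members (7.04%), beside 46.8% of all transcripts that met the minimum in genes with at least 2 transcripts, 53.3% of the protein_coding ones, 11.4% of processed_transcript and 9.98% of nonsense_mediated_decay models. IsoPct shares its numerator with the rule, so these shares describe the members and test nothing. IsoPct was lower at higher intron content, with a median of 26.2% for members with an intron share under 10%, 13.6% between 10 and 50%, and 3.80% at 50% or more.

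The 54 members that carried most of their gene's TPM included genes of ribosomes, RNA processing and antigen handling. Rps20-201, of a protein of the small ribosomal subunit, had an IsoPct of 90.8, 91.0 and 92.4 and a TPM of 156, 121 and 215 (chr4:3834473-3835488, minus strand). It holds a whole coding intron of 192 bases with a GC content of 71.9%. Ncl-202, of nucleolin, a major nucleolar protein of ribosome assembly, had an IsoPct of 83.7, 82.7 and 84.0 and a TPM of 44.4, 32.3 and 38.3. It holds 2 introns, of 190 and 492 bases, which together make 22.2% of its 3072 bases, with a GC content of 32.6% and 32.5%. The share of the gene in either model differed between libraries by less than 2 percentage points.

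Splice sites of introns kept by members with a high IsoPct varied at the donor, as the following lines show with the ends in capitals. The donor of the longer Ncl intron is GTAAGT, while those of Rps20 and of Tap2, a subunit of the transporter that carries peptides to MHC class I, are not among the 2 forms counted above.
Rps20-201 donor: atgGTgagg
Rps20-201 acceptor: tcccgcctgggtgataacAGgca
Ncl-202 donor, longer intron: gtgGTaagt
Ncl-202 acceptor, longer intron: tgttatctttgtatttgcAGgtg
Tap2-202 donor: aggGTgagg
Tap2-202 acceptor: ctcacctctctcctgtccAGgtg
In the 18 bases before the acceptor AG, pyrimidines (C and T) made up 55.6% in Rps20-201, 72.2% in Ncl-202 and 88.9% in Tap2-202, beside a median of 77.8% over the members' whole introns.

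Tap2-202 had an IsoPct of 78.3, 77.5 and 77.0 and a TPM of 27.1, 24.6 and 43.5, highest in replicate 3. Cd83-202 had an IsoPct between 74.8 and 75.2 in all libraries and a TPM of 94.2, 44.5 and 91.2. Prelid1-202 had an IsoPct of 82.0, 83.5 and 83.4 and a TPM of 54.9, 42.5 and 57.6. In all 3 the retained intron makes under 7% of the model (6.33%, 4.40% and 6.81%), so that most bases of each model are also exon bases of the coding transcripts. Other members of high IsoPct were Mrpl57-202 (95.04 ± 1.28), of a mitochondrial ribosomal protein, Exoc3l4-211 (95.3 ± 0.613), Chic2-202 (89.6 ± 2.77) and Mrps26-201 (89.1 ± 0.618; SD, n = 3).

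Of the 54, 18 overlapped an exon of another gene, beside 156 of all 767 members (20.3%). The strand setting of the counting is not given in the sources used here, so reads of overlapping genes on opposite strands could not be told apart. Tmem132a-203 (IsoPct 92.2 ± 0.939) overlaps an exon of Slc15a3, a lysosomal peptide transporter gene of macrophages on the opposite strand, and had a TPM of 57.3, 31.2 and 62.7. Olfr56-205 (IsoPct 99.6 ± 0.150), of an olfactory receptor gene, overlaps an exon of Ifi47 on the same strand, which encodes an interferon-induced GTPase, and had a TPM of 12.0, 11.7 and 18.1. Prelid1-202 and Mrps26-201 also overlap an exon of another gene. By structure, 35 of the 54 had an end in an intron, 12 held a whole intron, and the median intron share was 10.8%.

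The kallisto-layout tables give a second estimate from the same libraries. A tpm of at least 1 in all 3 of them was reached by 310 members (40.4%), beside 61.1% of all transcripts that met the rule, 64.6% of protein_coding, 46.1% of processed_transcript and 44.1% of nonsense_mediated_decay ones. Its tpm was mostly lower: the median log2 ratio to the RSEM-layout TPM, with a pseudocount of 0.1, was -1.27 for the members and -1.34 for all. In replicates 1, 2 and 3 it was -0.76, -1.40 and -1.73 for the members and -0.85, -1.42 and -1.75 for all. A kallisto-layout tpm of 1 thus stands for a different RSEM-layout level in each library. The members were spread more widely around it. Within 1 log2 unit of the overall median lay 564 members (73.5%), beside 90.3% of all transcripts, and more than 2 units below it lay 72 (9.39%), beside 3.28%. A wide spread was not particular to the members. The quartiles of the log2 ratio lay 0.984 apart for members, 0.896 for processed_transcript and 0.679 for nonsense_mediated_decay models. For protein_coding transcripts they lay 0.22 apart. Across the members, log2 values of both estimates had a Pearson r of 0.763 and ranks a Spearman rho of 0.749 (n = 767 transcripts, which share libraries and reads and are not independent).

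**Figure D3:**
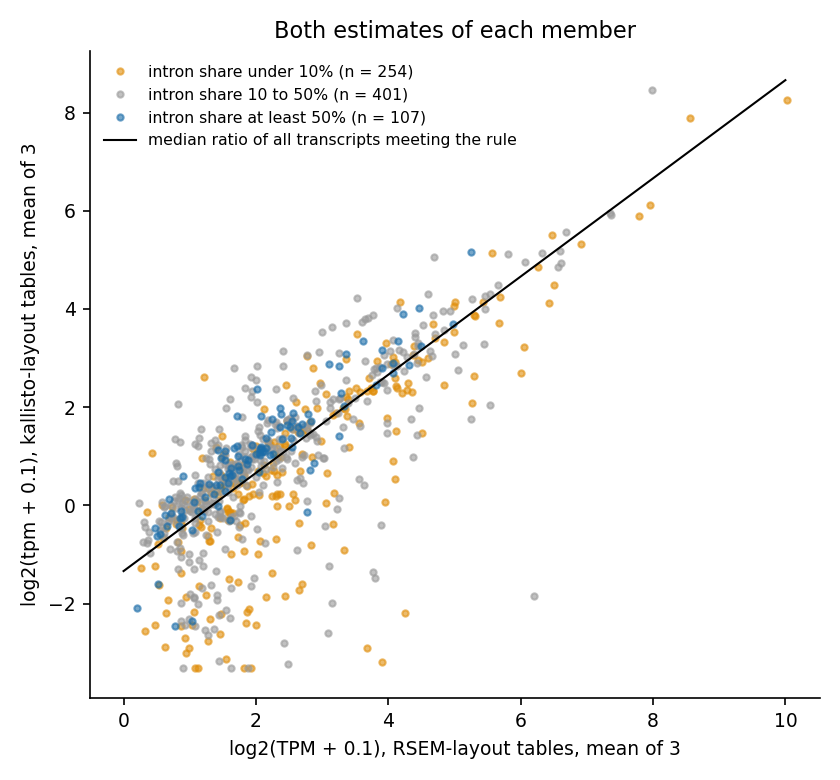
Mean level of each member in the kallisto-layout tables against that in the RSEM-layout tables, both as log2 with a pseudocount of 0.1, coloured by intron share of the model, with a line at the median ratio of all transcripts that met the rule. Most points follow the line, and a group falls far below it, down to members listed at 0.

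With this pseudocount the lowest ratio was in Anpep-206, a model of aminopeptidase N (CD13), a surface enzyme of myeloid cells. Its RSEM-layout TPM was 86.8, 46.5 and 86.4, with a first-library interval of 80.5 to 90.03, and its kallisto-layout tpm was 0.422, 0 and 0.116. Prrc2a-204 stood at 13.7, 12.9 and 18.03 in the first tables and at 0, 0.0301 and 0 in the second. The order of these members depends on the pseudocount, since the gap between the mean levels was wider in Prrc2a-204 (14.9 and 0.01003) than in Anpep-206 (73.2 and 0.180). Aplp2-207, Tfrc-204 (transferrin receptor) and Myl6-212 (a myosin light chain) were also among the 5 lowest ratios. All 5 have an end inside an intron and an intron share under 25%, traits common among the members. Of those whose gene has a coding transcript, 69.2% had such an end and the median intron share was 16.3%. Over all members, 5 were listed at 0 and 15 stayed under 0.1 in every kallisto-layout table.

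Disagreement in the other direction was rarer: 6 members (0.782%) lay more than 2 units above the overall median, beside 0.544% of all transcripts that met the rule. Ctsb-202, of the lysosomal protease cathepsin B, had a TPM of 109, 38.6 and 612 in the RSEM-layout tables, a 12.0-fold range in CPM with replicate 3 highest. In the kallisto-layout tables it had 470, 228 and 360 tpm, a 1.56-fold range once scaled to library size. The gene as a whole had 12012, 13135 and 14618 CPM. Gm43305-201, of a gene with no coding transcript, had a TPM of 5.65, 3.65 and 5.71 and a kallisto-layout tpm of 37.6, 15.8 and 18.03.

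Shares of the gene were also computed from the kallisto-layout tables. That share was at least 50% in every library for 57 members, and 42 members passed that limit by both estimates. For Rps20-201 it averaged 91.8%, for Ncl-202 88.1%, for Tap2-202 75.2% and for Cd83-202 68.7%. The median share of the gene over the members was 11.4% in the kallisto-layout tables, beside 16.4% for IsoPct computed the same way (the mean of the 3 libraries' medians), and 5.87% when expected counts were used in place of TPM.

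The counts behind most members were not small. The median mean expected count was 279, and 764 members had at least 10 in every library, with a lowest value of 2.66. The median coefficient of variation of the posterior count, which describes the uncertainty of dividing reads between transcripts, was 7.79%, beside 3.72% for all transcripts that met the rule. The lower bound of the deposited TPM interval was at least 1 in every library for 552 members. The tables do not state the level of these intervals.

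Between replicates the members were spread more widely than all transcripts that met the rule. Their median SD of log2 CPM was 0.291, beside 0.178 for all, 0.243 for processed_transcript and 0.231 for nonsense_mediated_decay models. The intervals of the highest and lowest library were apart in 480 members (62.6%), beside 72.9% of all transcripts. The share was 76.1% of protein_coding, 50.3% of processed_transcript and 55.1% of nonsense_mediated_decay models. The members thus lay below all transcripts but above the 2 other non-coding classes. The members' wider intervals bear on the comparison with all transcripts. By CPM, 297 members (38.7%) were highest in replicate 1, 194 (25.3%) in replicate 2 and 276 (36.0%) in replicate 3, beside 20.3%, 33% and 46.6% of all transcripts that met the rule. The median deviation of the members from the mean of 3 libraries was close to 0 in every library (0.01, -0.04 and 0.01 on the log2 scale), beside -0.057, 0.0045 and 0.054 for all transcripts that met the rule.

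Members made mostly of intron were high in replicate 1. Of the 107 with an intron share of at least 50%, 81 (75.7%) were highest in replicate 1, 8 in replicate 2 and 18 in replicate 3. Their median deviations were 0.82, -0.15 and -0.57, and 66 of the 107 followed the order of replicate 1 over 2 over 3. Of the 254 members with an intron share under 10%, 60 (23.6%) were highest in replicate 1, and their median deviations were -0.07, 0.03 and 0.04. In 5 steps of intron share from 0 to 100%, the percentage highest in replicate 1 was 23.6, 32.0, 47.5, 70.4 and 86.1. The parent genes lay nearer to 0: for the members at 50% or more, the median deviations of the genes were -0.02, -0.11 and 0.09. A gene's count includes those of its members, so gene and member are not separate measures, here and below. The median deviation of the member beyond its gene was 0.60 in replicate 1 and -0.54 in replicate 3. With replicate 1 left out, the median deviations of these 107 members were 0.15 in replicate 2 and -0.15 in replicate 3.

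The same measure was read in transcripts that the rule left out. That set is no independent support, since a model high in 1 library can reach the mean count through it and miss the TPM minimum in the others: 75.3% of the set was highest in replicate 1 whatever its intron share. Among 4677 retained_intron models of expressed genes that did not meet the TPM minimum but had a mean expected count of at least 10, 2295 had an intron share of at least 50%. Of these, 2023 (88.2%) were highest in replicate 1 and 48 (2.09%) in replicate 3, with median deviations of 0.49, -0.06 and -0.43. Of the 424 with a share under 10%, chosen through the same filter, 195 (46.0%) were highest in replicate 1. Malat1 moved the same way, with deviations of 1.00, 0.06 and -1.06, and Neat1, the scaffold RNA of nuclear paraspeckles, with 1.22, -0.14 and -1.09. Not all 9 RNAs of the comparison list did so. Rn7sk (0.21, 0.40 and -0.61) and Rmrp (-0.03, 0.53 and -0.50) were highest in replicate 2, and Pvt1 spread less (0.15, -0.11 and -0.03). The part of nuclear RNA in the levels of the intron-rich members was not tested. The 3 libraries are of 1 condition, so no group was compared.

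**Figure D4:**
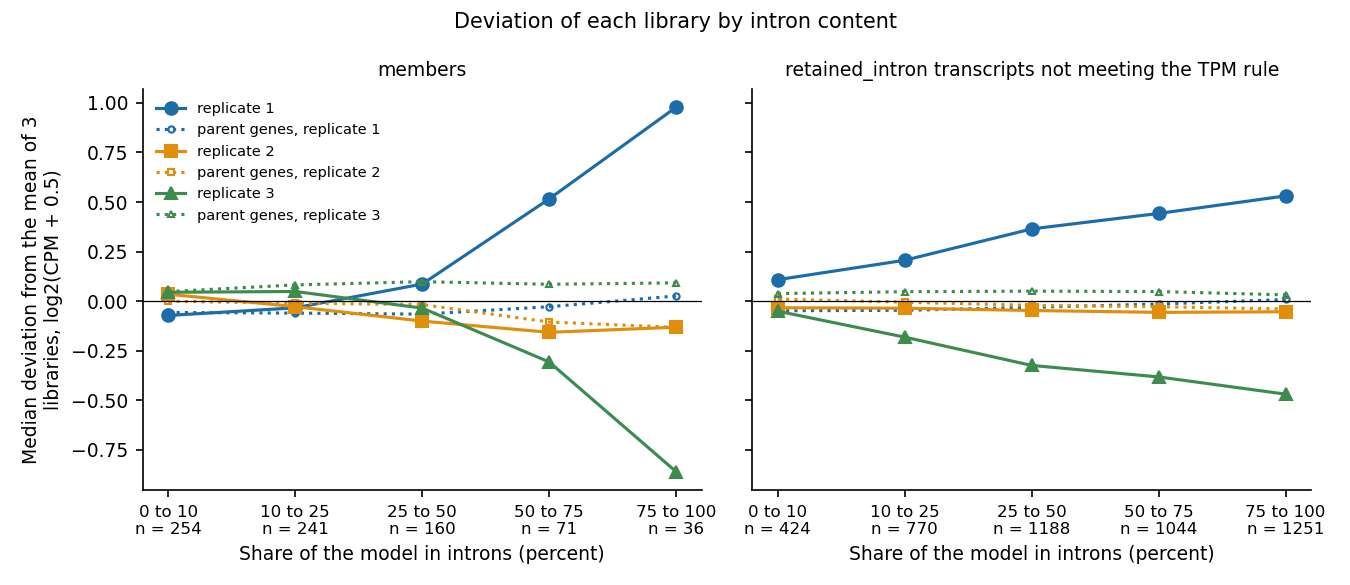
Median deviation of each library from the mean of 3, in log2(CPM + 0.5), by intron share of the model, for members (left) and for retained_intron models that did not meet the TPM minimum (right); dotted lines give the parent genes. Replicates 1 and 3 draw apart as intron share rises in both panels, to 0.98 and -0.86 for the 36 members with a share of at least 75%, while the medians of the members' parent genes stay between -0.13 and 0.10.

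NF-kB carries the Toll-like receptor signal to transcription. Members from the list of NF-kB subunits and feedback genes were usually highest in replicate 1 as well. In this list, 7 of 17 expressed genes with an annotated retained_intron model held 15 members, 4 of them from Tnip3. The 7 were Ikbke, Nfkbia, Nfkbie, Tnfaip2, Tnfaip3, Tnip3 and Traf1, with no gene of an NF-kB subunit among them. Highest in replicate 1 were 14 of the 15, beside 38.7% of all members and 20.3% of all transcripts that met the rule. The 15 had a median intron share of 36.2%, and 5 had a share of at least 50%. Of all members with a share of 25 to 50%, 47.5% were highest in replicate 1, and of those at 50% or more, 75.7%. Tnfaip3-206, of the ubiquitin-editing inhibitor A20, had 14.5, 2.95 and 2.77 CPM beside 1511, 824 and 1538 CPM for its gene. Tnip3-206, of an A20-binding protein, is 94.7% intron and had 55.6, 17.5 and 7.48 CPM beside 284, 185 and 232 for its gene. Replicate 1 was highest in both, by 5.24-fold and 7.43-fold over the lowest library, a wider range than that of either gene. Another member of the same gene, Tnip3-205, with an intron share of 27.7% and an IsoPct of 31.9 ± 3.58 (SD, n = 3), had 27.3, 23.7 and 29.4 CPM, a 1.24-fold range.

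Cytokine and chemokine genes gave 9 members from 7 of 11 genes, with a median intron share of 29.5%. Of the 9, 8 were highest in replicate 1, beside 38.7% of all members. Il1b-203, of the gene for interleukin-1 beta, had 9.11, 1.79 and 0.957 CPM beside 456, 326 and 315 for the gene. Ccl5-202, of a T cell-attracting chemokine that is among the most abundant mRNAs here, had 25.4, 9.82 and 8.71 CPM, an IsoPct of only 0.480, while the gene was lowest in replicate 1 (1895, 2765 and 2501 CPM). Cxcl2-203, of a neutrophil-attracting chemokine, had 50.7, 10.2 and 9.95 CPM beside 676, 230 and 565. Immediate-early genes, which respond to stimulation within minutes, gave 4 members from 3 of 6 genes, with a median intron share of 28.1%. All were highest in replicate 1, beside the same 38.7% of all members. Dusp1-204, of a phosphatase that switches off MAP kinases, had 6.87, 1.43 and 1.54 CPM. The Il1b model overlaps an exon of the antisense gene Il1bos.

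Malt1, which encodes a protease and scaffold of NF-kB signalling and was in no list, had 3 members with intron shares of 85.3% to 97.1%. Malt1-203 had 68.2, 17.0 and 9.02 CPM and Malt1-213 62.5, 15.9 and 9.56 CPM. The gene, whose count includes those of its members, had 277, 87.7 and 88.3 CPM. Here gene and members were both highest in replicate 1, but the members make up part of the gene's value.

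Splicing factors of the SR class, which bind exons and often regulate their own mRNAs by retained introns or poison exons, gave 5 members from 5 of 20 genes. Rsrp1-204 had 109, 48.7 and 22.4 CPM, an IsoPct of 25.4 on average, and a retained intron of 1302 bases. Srsf5-212 had 37.8, 12.9 and 4.91 CPM and holds an intron of 1229 bases. Both were highest in replicate 1 and lowest in replicate 3. Of the 5 members, whose median intron share was 45.2%, 4 were highest in replicate 1, beside 38.7% of all members. Proteins of the hnRNP class gave 3 members from 2 of 19 genes, splicing-factor kinases 2 from 2 of 8, core spliceosome genes 4 from 4 of 24, and mRNA export genes 4 from 4 of 16. A list of 18 expressed genes known for retained or detained introns in other cells held no member, nor did 11 genes of nonsense-mediated decay and RNA decay.

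Interferon-stimulated genes, the antiviral genes switched on by type I interferon, held members in 17 of 26 genes, 29 in all, of which 11 had an intron share of at least 50%. Their replicate pattern was mixed, with 15 highest in replicate 1, 3 in replicate 2 and 11 in replicate 3. Of all members, 38.7%, 25.3% and 36.0% were highest in these libraries. Irf7 had 4 members. Irf7-210, whose only intron bases are the 69 printed above, had 84.9, 94.3 and 150 CPM and an IsoPct of 5.82 on average, highest in replicate 3 as was the gene (1378, 1832 and 2502 CPM). Oasl2-208, 95.2% intron, had 22.7, 9.39 and 6.54 CPM while Oasl2-204, 30.5% intron, had 18.3, 23.7 and 20.8. Oasl2 encodes a protein of the oligoadenylate synthetase family. Samhd1-210, of an enzyme that degrades deoxynucleotides, had 27 intron bases of 681 and 61.1, 74.7 and 60.5 CPM.

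Antigen presentation genes held members in 12 of 19, with 17 members of which 1 had an intron share of at least 50%. Besides H2-K1 and Tap2, Psmb8-205, of a catalytic subunit of the immunoproteasome, had a TPM of 80.3, 82.4 and 126 and an IsoPct of 50.1 ± 2.64 (SD, n = 3), with a whole intron of 190 bases. Lysosome and phagocytosis genes held members in 8 of 21, ribosomal protein genes in 11 of 63, the Toll-like receptor list in 1 of 16 (Cd14) and tRNA synthetases and related genes in 1 of 24. The 12 ribosomal protein members had a median TPM of 36.4, and none had an intron share of at least 50%. Of the 12, 8 were highest in replicate 3, beside 36.0% of all members. The 4 macrophage identity genes and 5 snoRNA host genes with an annotated model held no member.

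These counts stand beside 10.9% of all 5754 expressed genes with an annotated retained_intron model (TPM of at least 1 for the gene in every library). A fixed TPM minimum is met more easily in an abundant gene: the share with a member was 1.46%, 6.68%, 11.3% and 24.2% in the 4 quartiles of gene TPM, and the median gene TPM was 27.0 for parent genes and 9.84 for all. Within the highest quartile, 16 of 25 interferon-stimulated genes held a member, 7 of 10 cytokine and chemokine genes, 12 of 17 antigen presentation genes, 7 of 12 NF-kB genes, 8 of 21 lysosome genes and 11 of 61 ribosomal protein genes. In the same quartile, the count was 3 of 3 immediate-early genes, 5 of 11 SR genes, 2 of 15 hnRNP genes, 2 of 9 core spliceosome genes, 1 of 7 Toll-like receptor genes and 1 of 11 tRNA synthetase genes. No member was held by 5 genes known for retained introns, 3 macrophage identity genes, 2 snoRNA host genes, or the 1 mRNA export and 1 decay gene in this quartile, and no splicing-factor kinase gene fell in it. The highest quartile begins at a gene TPM of 22.4, so gene level still differs within it and these counts are not adjusted for it. Over each list's expressed genes with an annotated model, the median gene TPM was 107 for interferon-stimulated and 102 for antigen presentation genes. It was 87.1 for cytokine and chemokine genes, 203 for lysosome genes and 180 for ribosomal protein genes. The lists were not compared with one another by a test.

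**Figure D5:**
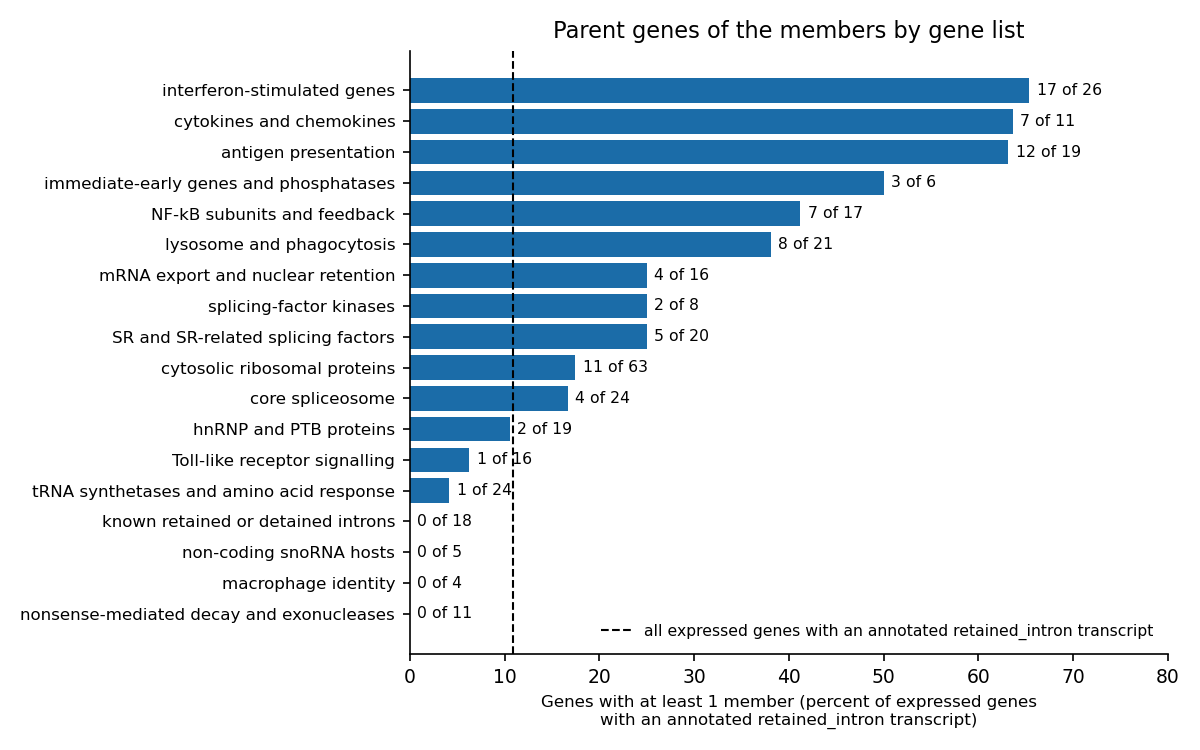
Percent of expressed genes with an annotated retained_intron model that held at least 1 member, for each of 18 gene lists, with counts beside the bars and a dashed line at the value for all such genes. Interferon-stimulated, cytokine and antigen presentation genes are at the top, at 65.4%, 63.6% and 63.2%.

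Several genes gave many members. One member was found in 527 genes, 2 in 76, 3 in 17 and 4 in 6, while H2-K1 had 5 and Lilr4b 8. Lilr4b and Lilrb4a encode closely related receptors of myeloid cells and lie side by side on chromosome 10, and together they gave 12 members. Lilr4b-206 had 165, 22.4 and 11.7 CPM, a 14.2-fold range, beside 992, 407 and 567 for its gene, and Lilrb4a-209 had 197, 38.3 and 28.4 beside 813, 302 and 393. Apart from Lilr4b-212 and Lilr4b-210, which were highest in replicate 3, every member of both genes was highest in replicate 1. The longest introns of these models, of 999 and 1006 bases, have the same splice site letters.
Lilr4b-206 donor: cagGTaagc
Lilr4b-206 acceptor: tctccatcaacctctggcAGaaa
Lilrb4a-209 donor: cagGTaagc
Lilrb4a-209 acceptor: tctccatcaacctctggcAGaaa
How reads were divided between these genes, or among the models of 1 gene, was not tested. Lilr4b-208 spanned 13.2-fold between libraries in the RSEM-layout counts and 99.2-fold in the kallisto-layout counts.

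Other members with wide ranges had low or disputed counts. Tmem59-205 had 7.46, 17.3 and 1.36 CPM but 0.626, 0.185 and 0 by kallisto-layout counts on the same scale. Tpt1-208, of a translationally controlled tumour protein gene, had 10.01, 5.84 and 0.967 CPM, and 3.63, 0.763 and 0.370 by the other estimate. The former was highest in replicate 2 and the latter in replicate 1. Clec4e, which encodes the Mincle receptor for mycobacterial glycolipid, gave members with a large and a small intron share: Clec4e-206, with a whole intron of 2375 bases, had 210, 49.9 and 47.6 CPM beside 1037, 440 and 738 for the gene, while Clec4e-203, with 72 intron bases of 2234, had 76.9, 24.7 and 56.6. Replicate 1 exceeded replicate 3 in both, by more in the model with the larger intron share.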

How the data were processed

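Cytosolic RNA of 3 libraries of 1 group was examined. For every library there are 3 deposited tables: genes, transcripts in the column layout that RSEM writes, and transcripts in that of kallisto. Which program, version and strand setting made them is not given in the sources used here. The expected count (estimated reads, whole or not) and TPM were deposited by the authors, as were IsoPct in percent, the posterior mean and SD of each count and an interval for each TPM. The notes deposited with the files name mm10 and GENCODE M21.

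Transcript class came from the deposited transcript identifiers, and all 21848 retained_intron models matched class, length and sequence in the GENCODE M21 reference. Introns were those of protein-coding transcripts of the same gene, less any base in a coding transcript's exon. CPM was computed from expected counts with TMM library sizes of gene counts (edgeR 4.0.16), deviations as log2(CPM + 0.5), and kallisto-layout ratios as log2 with a pseudocount of 0.1. Depth was 47972048, 54409437 and 53491936 expected counts over genes. Python 3.11.15, pandas 2.3.3 and R 4.3.3 were used. The steps that read transcript structure were tested on toy gene models, and the replicate deviations on simulated counts.

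With 1 group there was no comparison to test, and no p-value was computed. The labels call the libraries biological replicates, but with 1 strain-level donor entry the spread is that between samples, as far as the labels tell. Members and gene lists were chosen with earlier results of these data known.

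Transcripts are named by a rule: the 12 of highest TPM, the 12 of highest IsoPct in genes with a coding transcript and a TPM of at least 5, the 3 highest of each of 18 gene lists, the 5 largest and 5 smallest ratios between both estimates with at least 10 counts in every library, the 5 widest replicate ranges with a mean of at least 50 counts, 3 on each side of the minimum, and genes with at least 3 members. Il1b-203, Calr-204, H2-Q4-202 and, as comparison, Malat1, Neat1, Rn7sk, Rmrp and Pvt1 fall outside it and were chosen after their values were seen. The split by intron share was added after seeing the data.

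Alternatives were other TPM minimums, the posterior mean TPM, the kallisto-layout values, DESeq2 1.42.0 size factors, TPM rescaled to protein-coding genes, other pseudocounts, a count minimum of 10, and leaving out each replicate.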

Additional observations from a re-analysis of the deposited data

How the results depend on the processing

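The number of members depended on the minimum: 1237 at a TPM of 0.5, 442 at 2 and 217 at 5, beside 767 at 1, and 353 of the class reached a tpm of 1 in all kallisto-layout tables. Leaving out 1 replicate gave 804 to 883. The median IsoPct of 16.6 became 11.7 from kallisto-layout tpm and 6.07 from expected counts, and 16.4 to 16.7 with 1 replicate left out. Members with an IsoPct of at least 50 in every library numbered 54, and 35 by expected counts, with 59 to 60 when 1 replicate was left out. The class took 3.99% of TPM in multi-transcript coding genes, with 3.62 to 4.20% when 1 replicate was left out, and 2.08% of expected counts; the members alone took 3.10% of TPM.

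The median deviation of all members was 0.01, -0.04 and 0.01 in replicates 1, 2 and 3. In replicate 1 it was 0.10 with TPM rescaled to coding genes and 0.11 in kallisto-layout counts, and -0.0053 to 0.039 with another replicate left out. In replicate 2 it was -0.084 in kallisto-layout counts, and -0.039 to 0.0054 with another left out. In replicate 3 its sign changed to -0.076 in rescaled TPM and -0.048 in kallisto-layout counts, and it was -0.0054 to 0.0053 with another left out. Values this near 0 show no direction for the whole set.

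For members with an intron share of at least 50%, replicate 1 stayed highest in 81 to 90 of 107 under DESeq2 size factors, rescaled TPM, a pseudocount of 0.1 and kallisto-layout counts, and in 56 of the 78 that overlap no exon of another gene. With 1 other replicate left out, their median deviation was 0.46 to 0.76 in replicate 1, -0.46 to 0.15 in replicate 2 and -0.76 to -0.15 in replicate 3. No paired analysis was possible because there is 1 group. Depth limits the members of low count most, and the median member had 279 expected counts.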
